A study of Homo sapiens with 16 samples.

Results

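The ABC drug efflux transporters are membrane pumps that use ATP to move drugs and drug conjugates out of cells. They were described here as 8 protein-coding genes, chosen by symbol from the 58735 genes of each deposited gene table. No threshold on a measured value set the list, but it was drawn up with earlier results of these data known. RNA sequencing was read from 14 libraries of human lung adenocarcinoma lines. NCI-H1975, an EGFR-mutant line that also holds a mutation conferring resistance to early EGFR inhibitors, was given the chloroform fraction of Flos Magnoliae (dried magnolia flower buds), or magnolin (a lignan of those buds), or served as control, with 4 libraries per group. All 3 groups share the genotype WT in the labels, and no dose, vehicle or exposure time is given. Nothing in the labels marks replicates as separate cultures, so the p-values rest on a spread between libraries that may be technical. Parental HCC827, a line with an activating EGFR deletion that the labels also call WT, had 2 libraries, and its afatinib-resistant derivative was not analysed here. The series looked for genes altered in EGFR inhibitor resistance and for inhibitors of them.

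Each of these pumps takes a substrate from the membrane or the cytosol and releases it outside the cell, which lowers the level of the drug inside. ABCB1 (P-glycoprotein) and ABCG2 (breast cancer resistance protein, which works as a dimer) export unmodified drugs, among them EGFR kinase inhibitors. ABCC1, ABCC2 and ABCC3 (the multidrug resistance proteins MRP1, MRP2 and MRP3) mainly export conjugates with glutathione, glucuronate or sulfate, ABCC2 through the apical and ABCC1 and ABCC3 through the basolateral membrane. ABCC4 and ABCC5 also export cyclic nucleotides, and ABCC10 exports taxanes. Transcription of several of them is known to be raised by ligand-bound nuclear receptors, the aryl hydrocarbon receptor and NRF2, the sensors of foreign compounds and oxidants.

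Replicates 1 and 2 of each NCI-H1975 group stand in a first deposited table, replicates 3 and 4 in a second and HCC827 in another, each normalized separately. Rebuilt depth was 15.9 to 21.3 M reads per library, and 12106 to 14011 genes reached 1 FPKM (reads per kilobase of gene, scaled to library size). In the first table libraries lay by replicate number rather than by group. The chi-square per gene between the libraries of a group was 120 for the fraction, 115 for magnolin and 127 for control. Between same-numbered libraries of different groups it ran from 15.6 (fraction and magnolin replicate 1) to 56.7 (magnolin and control replicate 2). In the second table it was 13.1, 3.99 and 3.92 within the fraction, magnolin and control groups. All 6 epithelial markers reached 1 FPKM in every library of these carcinoma lines, and 0 of 5 leukocyte markers did in any. Replicate 1 of every group stood apart from the other NCI-H1975 libraries in EPCAM, CDH1 and the keratins KRT7 and KRT19. In KRT8 it lay within their range, and in KRT18 it overlapped them. The adhesion molecule EPCAM measured 178, 172 and 193 FPKM in replicate 1 of the fraction, magnolin and control groups, against 7.65 to 14.4 FPKM in the other 9 NCI-H1975 libraries and 159 and 152 in HCC827. CDH1 (E-cadherin) measured 74.2, 54.2 and 70.9 FPKM in those 3 libraries, against 4.88 to 9.39 in the other 9 and 127 and 116 in HCC827. The part of this difference in the results of replicates 1 and 2 was not tested. A fit over all replicates without the 3 libraries of replicate 1 called 0 members, as did the fit with them.

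Promoter sequence was read for the 6 of 8 members that RefSeq (GRCh38.p14) promoter windows matched, which were all but ABCC1 and ABCC3. Of these, 1 window is shown for each of 3 genes, one that holds matches, trimmed to the stretch outside annotated exons: ABCG2 and ABCC10, which passed the test with the fraction in replicates 3 and 4, and ABCC4, which passed in no comparison. Capitals mark, on either strand, GCGTG, the core to which the aryl hydrocarbon receptor binds, ACGTG, the core of the hypoxia response element, and TGACNNNGC, the core of the antioxidant response element that NRF2 binds.
ABCG2, chr4:88159025-88159159, minus strand: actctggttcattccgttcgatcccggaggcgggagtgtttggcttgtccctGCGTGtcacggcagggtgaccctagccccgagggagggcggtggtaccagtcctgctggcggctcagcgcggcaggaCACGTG
ABCC10, chr6:43427390-43427540, plus strand: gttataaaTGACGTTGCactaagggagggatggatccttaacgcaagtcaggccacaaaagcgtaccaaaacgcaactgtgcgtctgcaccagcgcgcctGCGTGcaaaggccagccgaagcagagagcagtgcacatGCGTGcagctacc
ABCC4, chr13:95301476-95301701, minus strand: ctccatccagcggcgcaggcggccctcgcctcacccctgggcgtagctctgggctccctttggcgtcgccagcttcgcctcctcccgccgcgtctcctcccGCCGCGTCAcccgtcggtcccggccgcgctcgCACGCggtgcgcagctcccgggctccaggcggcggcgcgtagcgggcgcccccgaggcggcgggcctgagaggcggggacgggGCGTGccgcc
The ABCG2 stretch held 1 GCGTG and 2 ACGTG, both from the palindrome CACGTG read on each strand, and the ABCC10 stretch held 2 GCGTG and 1 TGACNNNGC. ABCC4 held 2 GCGTG and 1 TGACNNNGC as well. RefSeq gives ABCG2 and ABCC10 other start sites too, and stretches outside exons at 2 of those of ABCG2 and at 1 of ABCC10 held 0 matches. Among 35116 promoter windows of 250 bases, 32.2% held GCGTG, 18.5% held ACGTG and 10.9% held TGACNNNGC, and of the 12 windows of the 6 members, some of which overlap, 6, 3 and 2 held them. A match is a description of the letters and not of binding.

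By the mean of each group in each table, though not in every library, ABCG2 was the most abundant of the 8 in NCI-H1975 (ENSG00000118777, hg38 chromosome 4, 88090264 to 88231322, minus strand). It measured 15.7, 47.5, 36.6 and 31.7 FPKM in fraction replicates 1 to 4, 13.8, 25.9, 37.9 and 41.0 FPKM in magnolin replicates 1 to 4, and 11.1, 19.5, 17.6 and 20.1 FPKM in control replicates 1 to 4. In replicates 3 and 4 both treated groups lay wholly above control, while in replicates 1 and 2 the groups overlapped and replicate 2 was the higher library in every group. The share of all genes whose groups separate within a table was not counted. Such separations, here and for the other members, are a description only. In replicates 3 and 4 ABCG2 averaged 34.2 ± 3.43 FPKM with the fraction and 18.8 ± 1.79 in control (SD, n = 2 each), and it was called higher (limma, log2 change 0.83, SE 0.105, adjusted p = 0.00509). It averaged 39.5 ± 2.15 FPKM with magnolin against the same control and was also called higher (limma, log2 change 1.03, SE 0.105, adjusted p = 0.0239). ABCG2 was thus the 1 member called with magnolin, in a comparison where 0.252% of 14673 genes were called higher. The magnolin call was lost with the replicate number as a block (adjusted p = 0.0603), with no filter on low genes (0.115) and on leaving out control replicate 3 (0.231) or 4 (0.145) or magnolin replicate 3 (0.113) or 4 (0.173). The fraction call held in all 15 alternatives.

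Between the fraction and magnolin, ABCG2 did not pass in replicates 3 and 4 (log2 difference -0.21, 95% interval -0.46 to 0.05, adjusted p = 0.235). Within same-numbered libraries its ratio of fraction to control was 1.41, 2.43, 2.08 and 1.58 for replicates 1 to 4. Its ratio of magnolin to control was 1.25, 1.32, 2.16 and 2.04. All 8 ratios were above 1, and higher in all 4 pairs held for 13.2% of 15428 genes with the fraction and for 10.8% with magnolin.

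**Figure D1:**
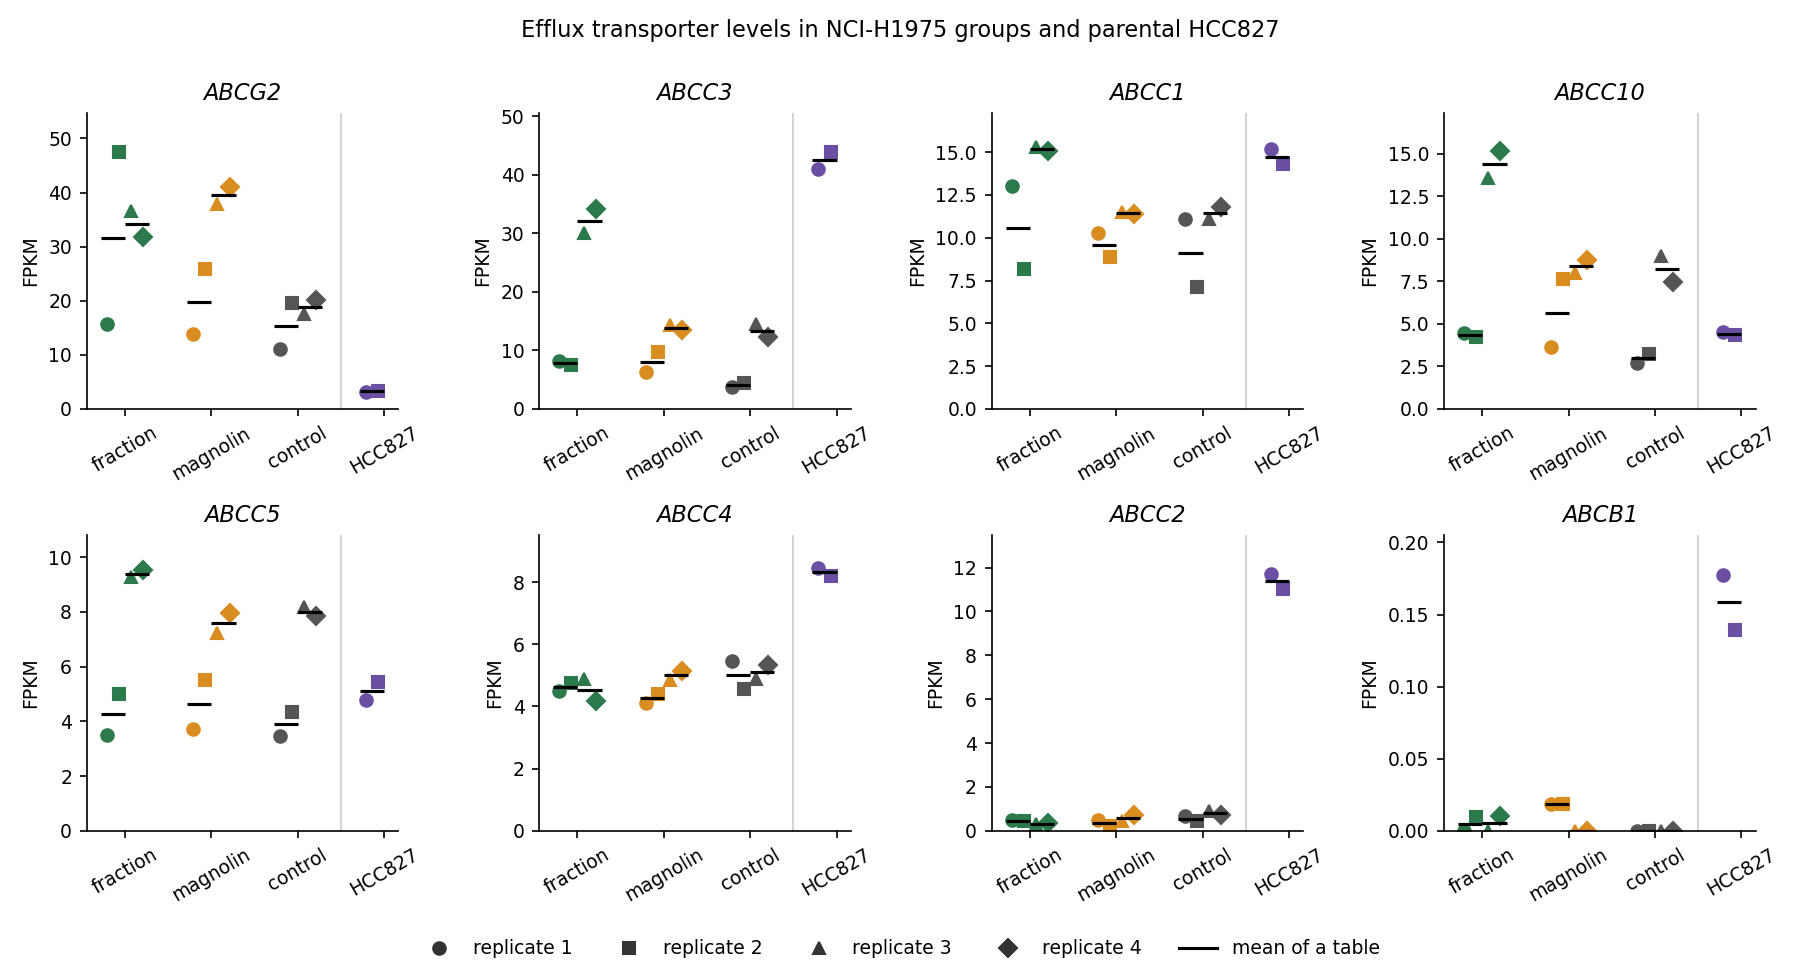
FPKM of the 8 efflux transporters (vertical axes, linear, from 0, a scale for each gene) in each library of the fraction, magnolin and control groups of NCI-H1975 and of parental HCC827, with marker shapes for replicate numbers and a black line at the mean of each table. In replicates 3 and 4, ABCG2 lies between 31.7 and 41.0 FPKM in the fraction and magnolin groups and at 17.6 and 20.1 in control, while ABCC3 and ABCC10 are high with the fraction and not with magnolin.

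ABCC3, the basolateral exporter of glucuronides and bile acids, differed most between fraction and control of the 6 members tested in replicates 3 and 4 (ENSG00000108846, chromosome 17, 50634777 to 50692252, plus strand). It measured 8.15, 7.46, 30.1 and 34.1 FPKM in fraction replicates 1 to 4, 6.31, 9.76, 14.4 and 13.4 in magnolin replicates 1 to 4, and 3.70, 4.36, 14.6 and 12.2 in control replicates 1 to 4. The fraction lay wholly above control in each table, magnolin lay wholly above control in replicates 1 and 2, and magnolin overlapped control in replicates 3 and 4. The share of all genes so separated was not counted. The second table gave means of 32.1 ± 2.79 FPKM with the fraction, 13.9 ± 0.662 with magnolin and 13.4 ± 1.69 in control (SD, n = 2 each). There it was called higher with the fraction than in control (limma, log2 change 1.20, SE 0.110, adjusted p = 0.00205) and than with magnolin (1.15, SE 0.110, adjusted p = 0.00430), in all 15 alternatives of each comparison. Magnolin against control there gave a log2 change of 0.05 with a 95% interval of -0.22 to 0.32 (adjusted p = 0.873).

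In replicates 1 and 2, ABCC3 averaged 7.80 ± 0.491 FPKM with the fraction, 8.04 ± 2.44 with magnolin and 4.03 ± 0.470 in control (SD, n = 2 each). The log2 changes against control were 0.81 with the fraction (SE 0.267, unadjusted p = 0.0231) and 0.82 with magnolin (SE 0.267, unadjusted p = 0.0218) in limma, and neither passed over all genes (adjusted p = 1.0 and 1). With the replicate block the adjusted p-values were 0.129 and 0.0616. The difference between the tables in the magnolin change of ABCC3 was -0.77 on the log2 scale (second table minus first, SE 0.281, unadjusted p = 0.0239), which did not pass over all genes (limma, adjusted p = 1).

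ABCC10, which exports taxanes and glucuronides, followed a like order of groups (ENSG00000124574, chromosome 6, 43427366 to 43450430, plus strand). It measured 4.44, 4.20, 13.6 and 15.2 FPKM in fraction replicates 1 to 4, 3.66, 7.64, 8.0 and 8.77 in magnolin replicates 1 to 4, and 2.71, 3.23, 9.0 and 7.46 in control replicates 1 to 4. Both treated groups lay above control in replicates 1 and 2, and the fraction alone did in replicates 3 and 4. In replicates 3 and 4 it averaged 14.4 ± 1.12 FPKM with the fraction, 8.38 ± 0.540 with magnolin and 8.23 ± 1.09 in control (SD, n = 2 each). It was called higher with the fraction than in control (limma, log2 change 0.74, SE 0.112, adjusted p = 0.00882), a call lost without control replicate 4 (adjusted p = 0.0638). It was also called higher with the fraction than with magnolin (limma, log2 change 0.71, SE 0.112, adjusted p = 0.0160), and that call was lost without magnolin replicate 3 (adjusted p = 0.0903), without magnolin replicate 4 (0.0865) and with no filter (0.0565). DLK2 overlaps ABCC10 on the opposite strand at 0.547 to 2.03 FPKM and at most 75 reads in a library, and the strand setting of the counting is not given in the sources used here.

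ABCC1, the exporter of glutathione conjugates and leukotriene C4, showed a smaller difference (ENSG00000103222, chromosome 16, 15949577 to 16143074, plus strand). It measured 13, 8.18, 15.3 and 15.0 FPKM in fraction replicates 1 to 4, 10.3, 8.85, 11.5 and 11.4 in magnolin replicates 1 to 4, and 11.1, 7.10, 11.1 and 11.8 in control replicates 1 to 4. In the first table replicate 2 was the lower library in all 3 groups, and in the second the fraction lay above both other groups, which overlapped. The means of replicates 3 and 4 were 15.2 ± 0.181 FPKM with the fraction, 11.4 ± 0.115 with magnolin and 11.5 ± 0.474 in control (SD, n = 2 each). It was called higher with the fraction than in control (limma, log2 change 0.38, SE 0.0719, adjusted p = 0.0179). That call was lost on leaving out control replicate 3 (adjusted p = 0.124) or 4 (0.0930) or magnolin replicate 3 (0.0513) or 4 (0.0515). The fraction against magnolin gave a log2 change of 0.38 too (limma, SE 0.0719, adjusted p = 0.0247), and the call was lost with the replicate block (adjusted p = 0.0556), with both groups fitted alone (0.0613) and on leaving out control replicate 3 (0.0631) or 4 (0.0637) or magnolin replicate 3 (0.120) or 4 (0.153).

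ABCC5 and ABCC4, the exporters of cyclic nucleotides, were not called in any comparison. ABCC5 (ENSG00000114770, chromosome 3, 183919934 to 184018015, minus strand) measured 3.50, 5.01, 9.27 and 9.53 FPKM in fraction replicates 1 to 4, 3.71, 5.52, 7.23 and 7.95 in magnolin replicates 1 to 4, and 3.48, 4.33, 8.19 and 7.83 in control replicates 1 to 4. The fraction lay above both other groups in replicates 3 and 4 by a small margin. Its log2 change there was 0.21 against control (limma, 95% interval 0.01 to 0.40, adjusted p = 0.130) and 0.28 against magnolin (adjusted p = 0.0707), and the comparison with magnolin passed with limma voom on rebuilt reads (adjusted p = 0.0127) and by a hair with rescaling over genes of at least 1 FPKM (0.04999). ABCC4 (ENSG00000125257, chromosome 13, 95019829 to 95301475, minus strand) measured 4.50, 4.76, 4.87 and 4.16 FPKM in fraction replicates 1 to 4, 4.13, 4.41, 4.86 and 5.14 in magnolin replicates 1 to 4, and 5.47, 4.58, 4.87 and 5.33 in control replicates 1 to 4. It varied least of the members above 1 FPKM, and its log2 change in replicates 3 and 4 was -0.15 with the fraction (95% interval -0.39 to 0.10) and -0.02 with magnolin (-0.27 to 0.22), both against control. ABCC4 was lower with magnolin in all 4 same-numbered pairs, with ratios of 0.754, 0.963, 0.998 and 0.964, which held for 8.72% of genes.

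ABCC2 and ABCB1 stayed under 1 FPKM in NCI-H1975 and were left out by the filter on low values. ABCC2, the apical exporter of conjugates (ENSG00000023839, chromosome 10, 99782640 to 99852594, plus strand), measured 0.488, 0.454, 0.298 and 0.340 FPKM in fraction replicates 1 to 4, 0.475, 0.238, 0.443 and 0.732 in magnolin replicates 1 to 4, and 0.657, 0.453, 0.889 and 0.744 in control replicates 1 to 4, from 876 reads in all. In replicates 3 and 4 the fraction lay below both other groups, at 82 reads against 154 with magnolin and 219 in control. In a fit with no filter its log2 change with the fraction against control was -0.46 (SE 0.157), which did not pass (limma, adjusted p = 0.212), on a scale whose pseudocount of 1 FPKM shrinks changes at this level. ABCB1 (ENSG00000085563, chromosome 7, 87503633 to 87713323, minus strand) had 6 reads in the 12 NCI-H1975 libraries, 2 of them with the fraction, 4 with magnolin and 0 in control. It stood at 0 in 8 libraries, where a count of 0 allows up to 3 reads, or 0.0241 to 0.0317 FPKM over the 12 libraries, which covers counting error only. A difference in ABCB1 between groups was not detectable at this depth.

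Read as counts, 4 of the 8 members passed as higher with the fraction than in control in replicates 3 and 4, and 0 as lower (ABCC1, ABCC3, ABCC10 and ABCG2). The background there was 8.33% of 14673 genes called higher and 11.6% called lower. Of the 8 members, 6 passed the filter on low values, and these had a median log2 change of 0.56, against -0.01 over all genes tested. With the fraction against magnolin, whose doses are not given, 3 were called higher and 0 lower (ABCC1, ABCC3 and ABCC10), where 5.55% of genes were called higher and 9.36% lower. Of all genes 814 were higher and 1374 lower there, or 959 and 1065 after rescaling over genes of at least 1 FPKM, and the members' median was 0.33 against -0.02. With magnolin against control the median of the 6 was 0.01, as over all genes (0.01).

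**Figure D2:**
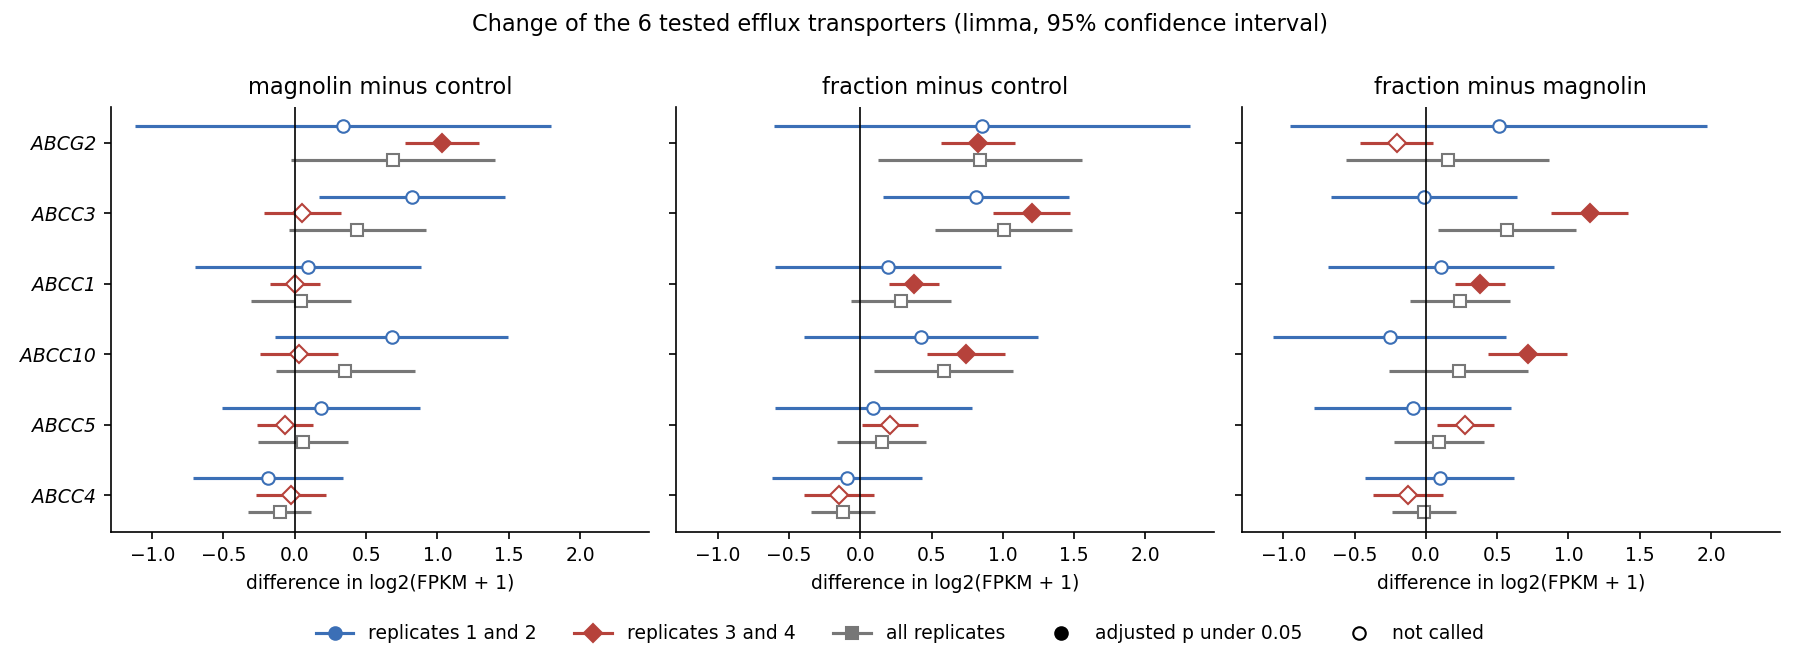
Difference in log2(FPKM + 1) (horizontal axes) of the 6 tested efflux transporters for magnolin minus control, fraction minus control and fraction minus magnolin, with limma 95% intervals for replicates 1 and 2, replicates 3 and 4 and all replicates, and filled symbols where the adjusted p is under 0.05. Filled symbols are all of replicates 3 and 4: ABCG2 with magnolin, 4 genes with the fraction against control and 3 with the fraction against magnolin.

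In replicates 1 and 2 no member was called in any of the 3 comparisons, and 0% of 13103 genes were (limma, 0 genes). At an unadjusted p under 0.05 there were 107 genes with the fraction against control, 255 with magnolin against control and 93 with the fraction against magnolin, and limma voom also called 0 genes in each. The median log2 change of the 6 members against control was 0.31 with the fraction and 0.26 with magnolin, against 0.00 and -0.01 over all genes. ABCG2 had the widest spread there, at 31.6 ± 22.5 FPKM with the fraction, 19.8 ± 8.50 with magnolin and 15.3 ± 5.98 in control (SD, n = 2 each). Its log2 change with the fraction was 0.85 with a 95% interval of -0.61 to 2.31, an interval that holds the 0.83 of replicates 3 and 4.

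In a fit of all 4 replicates with a term for the table, no member was called. With the fraction against control, where 0.00648% of 15428 genes were called, the log2 changes were 1.01 for ABCC3 (limma, SE 0.219, adjusted p = 0.272), 0.84 for ABCG2 (SE 0.326, adjusted p = 0.445), 0.58 for ABCC10 (SE 0.221, adjusted p = 0.439) and 0.29 for ABCC1 (SE 0.159, adjusted p = 0.563). With the replicate block in place of that term ABCC3 and ABCG2 each reached an adjusted p of 0.0933. With magnolin against control, where limma called 0% of genes, ABCG2 had a log2 change of 0.69 (SE 0.326, adjusted p = 1, or 0.342 with the block) and did not pass. The fraction against magnolin also gave 0% of genes called. There were 1551, 693 and 529 genes at an unadjusted p under 0.05 in these 3 comparisons, and limma voom called 1, 0 and 0. A change that differed between the tables was found for 0 members with either treatment against control, where limma called 0% of genes (746 genes with the fraction and 647 with magnolin at an unadjusted p under 0.05; limma voom called 1 and 0). With the replicate block 35 genes were called as different with the fraction and 0 with magnolin, and with no filter 74 and 29, with 0 members in each.

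Set within same-numbered libraries, 5 members (ABCC1, ABCC3, ABCC5, ABCC10 and ABCG2) were higher with the fraction than in control in all 4 pairs, which held for 13.2% of genes. The ratios ran from 1.71 to 2.79 for ABCC3, 1.30 to 2.04 for ABCC10, 1.15 to 1.38 for ABCC1 and 1.01 to 1.22 for ABCC5. ABCC4, at 0.781 to 1.04, and ABCC2, at 0.335 to 1.0, were each lower with the fraction in 3 of 4 pairs. With magnolin ABCG2 alone was higher in all 4 pairs, and ABCC3 (0.985 to 2.24) and ABCC10 (0.889 to 2.36) had their highest ratios in replicate 2. ABCC4 and ABCC2 (0.499 to 0.984) were lower with magnolin in all 4 pairs. That held for 8.72% of 15428 genes that passed the filter on low values, which ABCC2 did not pass. The fraction against magnolin had no member higher or lower in all 4 pairs, where 6.09% of genes were higher and 6.79% lower. The summed level of the 8 genes was 49.7, 77.6, 110.0 and 110.1 FPKM in fraction replicates 1 to 4, 42.4, 62.3, 84.4 and 88.4 in magnolin replicates 1 to 4, and 38.2, 43.6, 66.2 and 65.5 in control replicates 1 to 4. In every pair the sum was highest with the fraction and lowest in control. FPKM are shares of a library, so a transcript raised in all cells and one raised in some of them cannot be told apart.

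**Figure D3:**
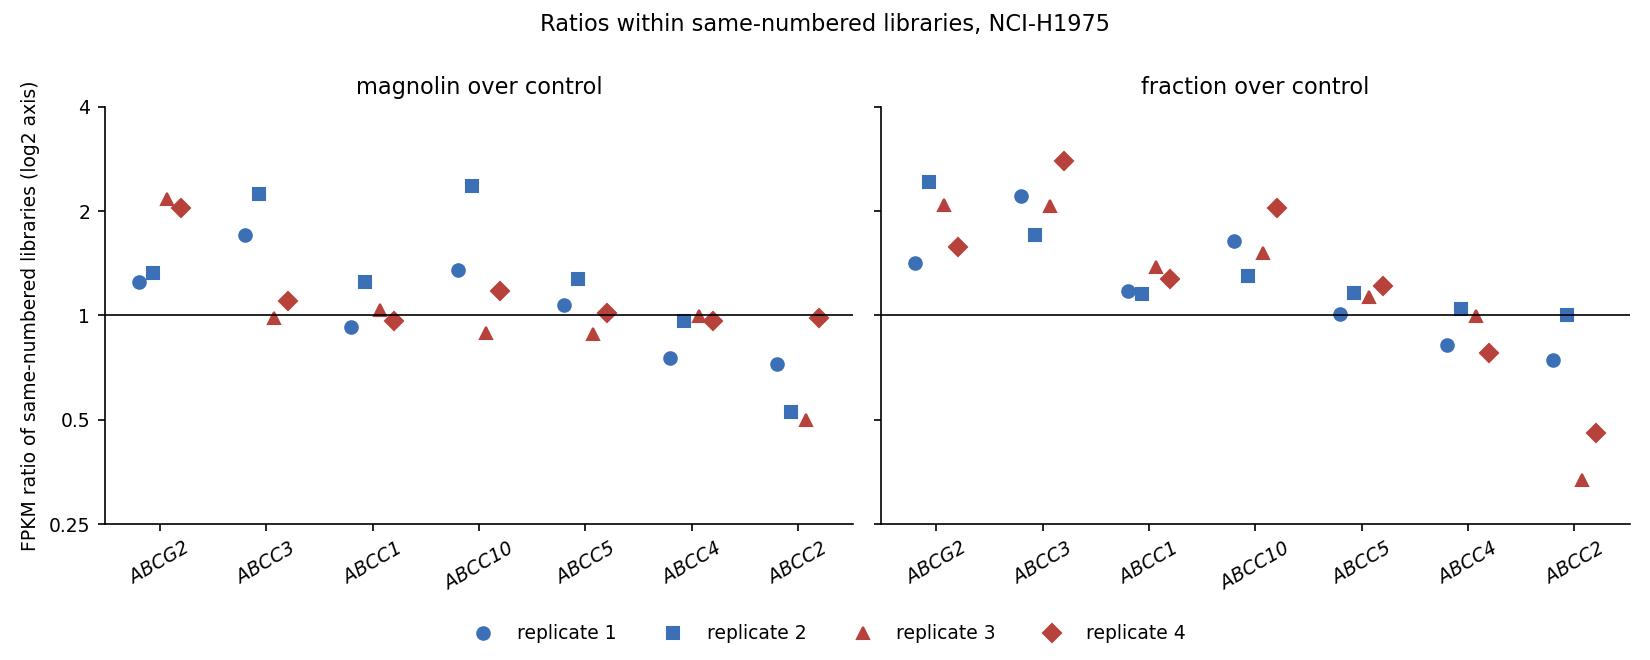
Ratio of FPKM in same-numbered libraries (vertical axis, log2 scale) of 7 efflux transporters, magnolin over control in one panel and fraction over control in the other, with colours for the tables and shapes for the replicates. With the fraction all points of ABCG2, ABCC3, ABCC1, ABCC10 and ABCC5 lie above 1, and with magnolin those of ABCG2 do.

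Measures of the libraries moved with the groups in replicates 3 and 4, and their part in the results was not tested. Mitochondrially encoded genes held 8.17 and 7.04% of reads with the fraction, 6.4 and 6.38% with magnolin and 5.84 and 5.83% in control. The summed epithelial markers were 410 and 449 FPKM with the fraction, 445 and 440 with magnolin and 619 and 613 in control. Of these 6 markers 2 were called lower against control with each treatment, the keratins KRT8 (log2 change -0.87 with the fraction and -0.53 with magnolin) and KRT18 (-0.75 and -0.51). The magnolin calls of KRT8 (adjusted p = 0.0759) and KRT18 (0.0952) were lost with the replicate block. Over all genes 11.6% were called lower against control with the fraction and 0.375% with magnolin. Between the fraction and magnolin CDH1 (log2 change 0.45), EPCAM (0.44) and KRT7 (0.44) were called higher with the fraction, and KRT8 (-0.34) lower. There 5.55% of genes were called higher and 9.36% lower. Of 5 fibroblast markers 2 were above 1 FPKM, summing to 9.74 and 10.2 FPKM over the list with the fraction, 15.2 and 14.8 with magnolin and 24.2 and 19.0 in control, and both tested, COL1A2 (log2 change -1.08) and COL1A1 (-0.51), were lower with the fraction. COL1A2 was also called lower with the fraction than with magnolin (-0.56). Levels differed within this list, with DCN at most 0.00463 FPKM in NCI-H1975 and COL1A2 at 0.543 to 21.1 FPKM. Endothelial markers summed to 0.943 and 0.849 FPKM with the fraction, 1.86 and 1.58 with magnolin and 6.46 and 4.37 in control, with 1 of 2 tested lower (CDH5, log2 change -2.08). Over the NCI-H1975 libraries VWF stayed at or below 0.0591 FPKM, while CDH5 reached 4.39 and PECAM1 1.82 FPKM.

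Other branches of the ABC family were counted in the same libraries. Over all genes there, 8.33% were called higher and 11.6% lower with the fraction against control, and 5.55% and 9.36% against magnolin. With the fraction against control 3 of 5 tested ABCA genes, most of them lipid transporters, were called higher. These were ABCA1, the cholesterol exporter (log2 change 0.88, SE 0.115, limma adjusted p = 0.00564), ABCA7 (0.75, SE 0.104, adjusted p = 0.00662) and the lamellar body lipid pump ABCA3 (0.50, SE 0.110, adjusted p = 0.0283); blocking on the replicate number ended the call of ABCA3 (adjusted p = 0.0542). Of the other ABCB genes 0 of 7 were called, of ABCD genes, which work in peroxisomes, 0 of 3, and of the ABCE and ABCF genes, which act in translation and do not span the membrane, 0 of 4. No other ABCC or ABCG gene was high enough to be tested. With magnolin against control no gene of these 6 lists was called. With the fraction against magnolin the same 3 ABCA genes were higher, and ABCD3 (-0.42) and ABCE1 (-0.44) were lower. With the block ABCA3 (adjusted p = 0.0566), ABCD3 (0.0731) and ABCE1 (0.0712) no longer passed.

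Targets of the aryl hydrocarbon receptor were called higher with both treatments in replicates 3 and 4. The shares of all genes called against control there were 8.33% higher and 11.6% lower with the fraction, and 0.252% and 0.375% with magnolin. Of 4 tested targets of the aryl hydrocarbon receptor all 4 were called higher with the fraction than in control and 3 with magnolin. CYP1A1, an oxidase of foreign compounds, measured 20.2 and 23.3 FPKM with the fraction, 6.43 and 10.8 with magnolin and 1.24 and 1.37 in control (log2 changes against control 3.30 and 2.03). In replicates 1 and 2 it measured 8.75 and 15.7 FPKM with the fraction, 4.18 and 4.21 with magnolin and 2.49 and 1.66 in control. Over all replicates it was the 1 gene called with the fraction against control (limma, log2 change 2.68, adjusted p = 0.0172). That call was lost with no filter and with both groups fitted alone. It was also lost on leaving out control replicate 2, 3 or 4, magnolin replicate 3, or fraction replicate 3 or 4. TIPARP (1.19 with the fraction and 0.91 with magnolin) and CYP1B1 (1.06 and 0.81) were higher with both, and NQO1, which is also on the NRF2 list, with the fraction (0.50). The magnolin calls of TIPARP (adjusted p = 0.0810) and CYP1B1 (0.0605) were lost with the replicate block, and without any 1 of the control or magnolin libraries limma called 0 genes with magnolin (1063 to 1484 at an unadjusted p under 0.05). Of 12 tested xenobiotic sensors and partners 4 were higher and 1 lower with the fraction, among them MAFK (0.91), the receptor's repressor AHRR (0.79), MAFG (0.48) and FOXO3 (0.46), and 0 with magnolin. The lower one was YBX1 (-0.32), whose call was lost with the block (adjusted p = 0.0522). The receptor itself, AHR, measured 41.8 and 37.1 FPKM with the fraction, 43.0 and 44.1 with magnolin and 40.0 and 40.0 in control. Of 18 NRF2 targets 7 were higher and 2 lower with the fraction, led by the cystine importer SLC7A11 (2.04), the ferritin chain FTL (1.18) and the haem oxygenase HMOX1 (0.89), with AKR1B10 lower (-0.98, lost with the block at an adjusted p of 0.0560), and with the block 6 were higher and 1 lower. With magnolin FTL was higher (0.70) and AKR1C3 lower (-0.83, lost with the block at 0.0749). Over these 3 lists the fraction against magnolin called MAFK (0.88), CYP1A1 (1.27) and 5 NRF2 targets higher and 0 lower, of which the block left 3 NRF2 targets (FTL, HMOX1 and SLC7A11), MAFK and CYP1A1.

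Of genes that make the substrates of these pumps, or bring drugs in, some were called higher and some lower with the fraction. Against control, 8.33% of all 14673 genes were called higher and 11.6% lower with the fraction, and 0.252% and 0.375% with magnolin. Between the fraction and magnolin these shares were 5.55% and 9.36%. The counts of the lists were not tested against these shares. Of 17 tested genes of glutathione synthesis and transfer, which supply the conjugates that ABCC1 and ABCC2 export, 2 passed as higher and 4 as lower with the fraction, against control, and 0 were called with magnolin. CHAC1, which degrades glutathione, was higher (log2 change 2.60), as was GSTZ1 (0.59), while GSTM4 (-0.54) and GGCT (-0.49, adjusted p = 0.0547 with the block) were lower. With the block 2 of the 4 lower calls were lost, GGCT and GSTT2B (adjusted p = 0.0530). Of 4 tested genes of glucuronide and sulfate conjugation 1 was lower with the fraction, PAPSS2, which makes the sulfate donor (-0.67), and 0 were called with magnolin. Of 14 tested drug uptake carriers 3 were higher and 1 lower with the fraction. These were SLC22A18 (0.72), the nucleoside carrier SLC29A2 (0.57, adjusted p = 0.0758 with the block) and the copper importer SLC31A1 (0.48), with the nucleoside carrier SLC28A3 lower (-1.32), and magnolin gave 0 calls. Of 9 tested genes of other efflux and membrane anchoring 1 was lower with the fraction, MSN (moesin, -0.72), and 0 with magnolin. Between the fraction and magnolin the calls were 2 higher and 4 lower for glutathione genes, 0 and 2 for conjugation, 1 and 0 for uptake and 0 and 2 for anchoring, where RDX (radixin, -0.53) joined MSN (-0.45). With the replicate block they were 1 higher and 1 lower for glutathione genes (CHAC1 and GSTM4) and 0 and 1 for conjugation (PAPSS2), and the calls for uptake and anchoring kept their number.

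The pattern most like each member was sought among 10837 protein-coding genes over the 12 NCI-H1975 libraries, by Pearson correlation of log2(FPKM + 1) after the mean of each table was removed. The points share library, table, depth and treatment, so these values are a description. ABCG2 was closest to FBLN1, a matrix protein (r = 0.971), and ACSL5, a fatty acid activating enzyme (0.914). ABCC3 was closest to ALS2CL (0.978) and GAA (0.967), ABCC10 to ZNF862 (0.979) and WBP1 (0.9748), and ABCC1 to the integrin ITGB4 (0.988) and CDCP1 (0.977). ABCC5 was closest to TNRC6C (0.980) and NLRP1 (0.979), and ABCC4 to SLMAP (0.959) and CLOCK (0.955). Between members the highest r was 0.931, for ABCC3 and ABCC10, and the lowest -0.69, for ABCC3 and ABCC4.

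The order of the pumps by level differed between the lines. Levels are given side by side with no test, since the tables were normalized separately. Parental HCC827 measured 41.0 and 43.9 FPKM of ABCC3, 15.2 and 14.3 of ABCC1, 11.7 and 11 of ABCC2, and 8.44 and 8.2 of ABCC4. It measured 4.79 and 5.43 FPKM of ABCC5, 4.53 and 4.32 of ABCC10, 3.20 and 3.30 of ABCG2, and 0.178 and 0.139 of ABCB1 (31 reads in both libraries). That is the order of levels in HCC827, and no neighbours in it overlapped. In NCI-H1975 control replicates 3 and 4 the order was ABCG2, ABCC3, ABCC1, ABCC10, ABCC5, ABCC4, ABCC2 and ABCB1, where ABCC10 and ABCC5 overlapped. In control replicates 1 and 2 it was ABCG2, ABCC1, ABCC4, ABCC3, ABCC5, ABCC10, ABCC2 and ABCB1, where ABCG2 and ABCC1 overlapped, as did ABCC3 and ABCC5. With the fraction in replicates 3 and 4 ABCC3 overlapped ABCG2 and ABCC10 overlapped ABCC1.

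The libraries of the lines did not overlap for ABCC2, at 11.7 and 11 FPKM in HCC827 and 0.238 to 0.889 over the 12 NCI-H1975 libraries, nor for ABCG2, at 3.20 and 3.30 FPKM against 11.1 to 47.5. ABCC3 and ABCC4 of HCC827 were also above every NCI-H1975 library, whose highest values were 34.1 and 5.47 FPKM. ABCB1 was too, from 31 reads in HCC827. For ABCC1, ABCC5 and ABCC10 the libraries of the lines overlapped. The share of all genes whose libraries do not overlap between the lines was not counted, so these separations are a description only. ABCC3 took 46.1 and 48.5% of the summed level of the 8 genes in HCC827, and ABCG2 took 33.2 and 28.8% with the fraction, 45.0 and 46.4% with magnolin and 26.5 and 30.7% in control replicates 3 and 4. Among 48 listed genes of the ABC family, ABCC3 ranked 1 in HCC827 and ABCG2 ranked 22 there, while in the 4 control libraries of NCI-H1975 ABCG2 ranked 5, behind ABCF1, ABCE1, ABCA3 and TAP1, and ABCC3 ranked 14. Over all 12 libraries, treated ones included, they ranked 3 and 8.

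**Figure D4:**
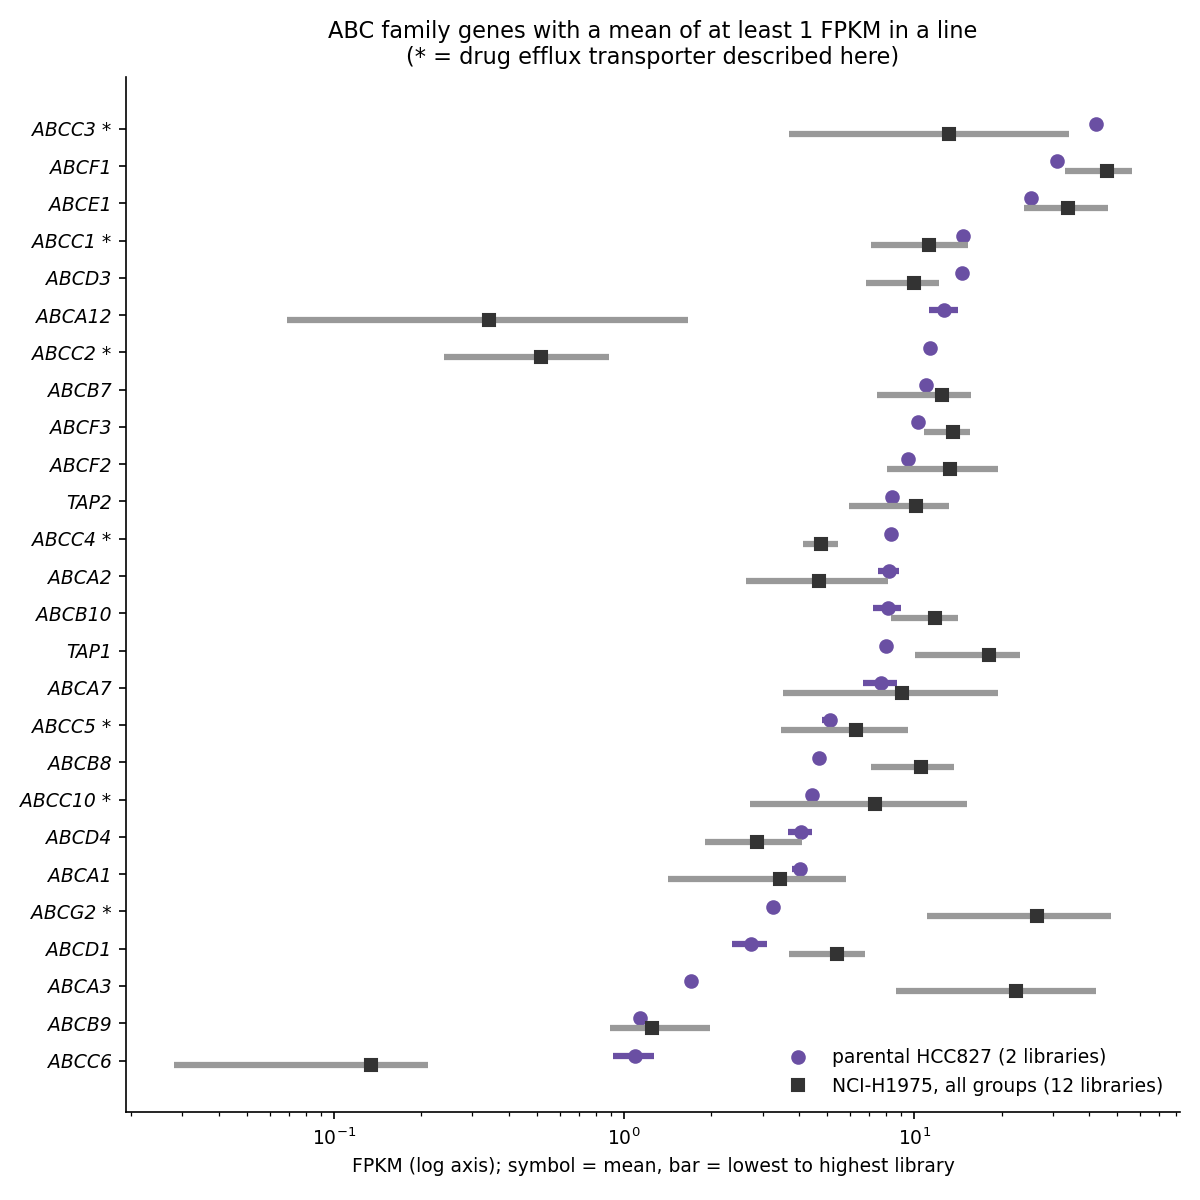
Mean FPKM (horizontal axis, log scale) of the ABC family genes with a mean of at least 1 FPKM in a line, for parental HCC827 (circles, 2 libraries) and NCI-H1975 (squares, 12 libraries of all groups), with bars from the lowest to the highest library and asterisks at the efflux transporters. ABCC2 and ABCC3 lie higher in HCC827 and ABCG2 lies higher in NCI-H1975.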

How the data were processed

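Values came from 3 gene tables of FPKM that the authors deposited, for 12 NCI-H1975 and 2 parental HCC827 libraries. Per the labels' protocols, RNA quality was checked on a bioanalyzer and libraries were made by an NEB method. The build is hg38 per the submitters' processing notes, and the aligner, the counter and its strand setting are not given in the sources used. For HCC827, 2 columns matched no sample label and were not used. All 58735 genes matched GENCODE release 29. FPKM times gene length gave whole reads (100% of values up to 2000 reads, within 0.05), from which depth was rebuilt. Every pair of libraries differed by more than sampling noise.

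Genes that reached 1 FPKM in 2 or more libraries were tested on log2(FPKM + 1) with limma 3.58.1 in R 4.3.3 (empirical Bayes with a trend, the 3 NCI-H1975 groups sharing the spread), with Benjamini-Hochberg adjustment over all genes and a threshold of 0.05. Fold changes are on that scale, which understates low genes. A log2 change without an adjusted p in the text passed this threshold where the gene is said to be called, higher or lower. The code was tested on simulated data. Deviations from group means of same-numbered libraries correlated at 0.290 to 0.840 over 4 replicates (12 pairs). The numbers were taken to pair libraries from this check alone. These deviations hold the shift between the tables, which all groups share, so that check cannot show pairing by itself. Within replicates 1 and 2 alone the correlations were 0.704 to 0.743. Within replicates 3 and 4 alone they were -0.03 to 0.02, so no pairing was seen there. The block and the same-numbered ratios of replicates 3 and 4 therefore rest on the replicate numbers only. Values or counts with the block stand beside the calls it alters, except for the marker calls between the fraction and magnolin.

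The 8 members, the 17 other gene lists (161 entries, all matched) and the tests were chosen with earlier results of these data known. Named were the members, up to 4 called genes of each list by size of change, and the 2 protein-coding genes most like each member. AHR, DCN and VWF, and the genes named for overlap or rank, were named after their values were seen. Alternatives were another pseudocount, no filter, protein-coding genes only, 3 rescalings, limma voom, a replicate block, the compared groups alone, and each library left out.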

Additional observations from a re-analysis of the deposited data

Results flagged for a closer look

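ABCC1 in NCI-H1975 control replicate 2 lay apart from the other controls, at 7.10 FPKM against 11.1, 11.1 and 11.8 FPKM in control replicates 1, 3 and 4. Its gap to the nearest control, divided by the range of the 4, was above Dixon's 95% critical value for 4 samples. Chance gives such a gap in about 1 of 20 groups, and the 8 members were each checked in the 3 NCI-H1975 groups wherever their values varied. The 4 controls also come from both NCI-H1975 tables, which were normalized separately. In the same table fraction replicate 2 (8.18 FPKM) and magnolin replicate 2 (8.85 FPKM) were also lower in ABCC1 than their replicate 1 libraries (13 and 10.3 FPKM).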

How the results depend on the processing

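The number of members called in replicates 3 and 4 was recomputed under 15 alternatives. With magnolin against control the 1 member called (ABCG2) became 0 with no filter on low values and 0 with the replicate block, and 0 to 1 when each library was left out. With the fraction against control the 4 called became 2 to 4, with 2 without control replicate 4, and with the fraction against magnolin the 3 called became 1 to 4, with 4 with limma voom and with rescaling over genes of at least 1 FPKM (ABCC5 added) and 1 without magnolin replicate 3 or 4. No direction of a called member reversed. The lone library left in a group is assumed there to vary like the other groups. Over all genes, the 92 calls with magnolin became 43 with the replicate block, 575 with limma voom, 395 among protein-coding genes, 165 with both groups alone, 154 and 140 without fraction replicate 3 or 4, and 0 with no filter (3021 genes at an unadjusted p under 0.05) or without any control or magnolin library (1063 to 1484 genes). The 2918 calls with the fraction became 1598 with no filter and 947 and 728 without control replicate 3 or 4. The 2188 between the fraction and magnolin became 1311 with the block, 3387 with limma voom, 752 with no filter, 1034 with both groups alone, and 226 to 951 without 1 control or magnolin library. In replicates 1 and 2 the block gave 24 genes with the fraction, 130 with magnolin and 24 between them, in place of 0, and 0 members in each. Over all replicates it gave 24 genes with the fraction in place of 1, and leaving out the 3 libraries of replicate 1 gave 222 with the fraction and 10 with magnolin, with 0 members. The cause of these shifts was not tested. The deposited FPKM already have equal median-ratio factors in each NCI-H1975 table, so that rescaling changed nothing. Scaling to total reads, and rescaling over genes of at least 1 FPKM, were chosen after seeing the data. The comparison of resistant with parental HCC827 was not run. With 2 libraries per group and table, changes the size of the spread in replicates 1 and 2 cannot be seen, ABCB1 is limited by counting error and ABCC2 by the filter on low values, and intervals from reads cover counting error only.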
